A study of Monodelphis domestica with 8 samples.

Results

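The outermost stretches of the opossum autosomes are described here through the histone marks they carry in fetal brain. Members are the peaks of 4 deposited lists on chromosomes 1 to 8 whose midpoint lies in the first 10 Mb of a chromosome or in the last 10 Mb before its last peak. The distal end of chromosome 3 was left out, which leaves 15 windows and 150 Mb, 4.40% of the sequence compared. They hold 2414 of the 54517 peaks in the lists, made up of 1191 H3K4me3, 699 H3K27me3, 461 H3K9Ac and 63 H3K9me3 peaks. The interior of the same chromosomes, 3262 Mb without the distal 10 Mb of chromosome 3, holds 39444 peaks and is the comparison throughout. The rule uses position, with each distal window set by the last peak of any list and so ending on a peak. The number, strength and overlap of the peaks are otherwise open to measurement.

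The material was whole brain of female fetuses of the gray short-tailed opossum (Monodelphis domestica), a laboratory marsupial, at embryonic day 13, studied by ChIP-seq, in which an antibody to a mark pulls down the chromatin that carries it and the recovered DNA is sequenced. Each of the 4 antibodies was used on 2 pools of 2 sister fetuses, one from an LL2 mother and an LL2 father and one from an LL1 mother and an LL2 father, which gave 8 libraries with no treatment. Pooled brain mixes many cell types, so marks that overlap in a list need not lie on the same chromatin in the same cell. Both libraries of a mark refer to 1 peak list, so no value has a replicate error and no test compares samples. Intervals are exact 95% intervals that cover counting error only, and they are too narrow where peaks lie in runs. Read depth is unknown, because the lists give no read counts. The end at position 0 is called proximal and the other distal, names that here say nothing about the centromere. No source used here names the genome build, so regions are given by position in the deposited coordinates and not by gene.

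H3K4me3 is placed on nucleosomes at the start of genes and on CpG islands, and H3K9Ac is added there by acetyltransferases when transcription is active. H3K27me3 is the product of Polycomb repressive complex 2 and keeps developmental genes silent. It often shares promoters with H3K4me3 in a state called bivalent, and it can also spread over longer tracts. H3K9me3 is the mark of constitutive heterochromatin, bound by HP1 proteins, and in many species it is found on repeats near centromeres and telomeres.

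The ends carried more H3K4me3 and H3K27me3 peaks per Mb than the interior, and fewer H3K9Ac peaks. H3K27me3 stood at 4.66 peaks per Mb in the terminal windows and 2.07 per Mb in the interior, a ratio of 2.25 (2.08 to 2.44). H3K4me3 stood at 7.94 and 6.36 peaks per Mb, a ratio of 1.25 (1.18 to 1.32). The acetylated mark went the other way, with 3.07 H3K9Ac peaks per Mb at the ends and 3.48 in the interior (ratio 0.883, 0.802 to 0.969). With 20 Mb windows this direction turned, but the values, 3.51 and 3.45 per Mb, were close to each other (ratio 1.02). H3K9me3 was rare everywhere and denser at the ends, at 0.420 against 0.185 peaks per Mb (ratio 2.27, 1.72 to 2.95). The share of sequence under peaks had the same direction for each mark, with smaller contrasts except for H3K9Ac. H3K27me3 covered 0.933% of the terminal windows and 0.527% of the interior, H3K4me3 1.69% and 1.51%, H3K9Ac 0.333% and 0.405%, and H3K9me3 0.0410% and 0.0195%. The H3K4me3 excess was not found among stronger peaks. With only the top-scoring 50% of each list its densities were 3.17 and 3.36 per Mb, a ratio of 0.943.

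The 15 ends were far from uniform, as the plot of the individual windows shows. For H3K27me3 the lowest window held 0.5 peaks per Mb, the median window 4.1 and the highest 13.3, while the interiors of the 8 chromosomes lay between 1.49 and 2.27. Interior values here and below are averages over far longer stretches, so their narrower range does not make the spread a trait of the ends. Of the 15 windows, 12 were above the interior of their own chromosome, in 11 of them with the whole counting interval above 1. The exceptions were the proximal ends of chromosomes 3, 6 and 7, with 11, 11 and 5 H3K27me3 peaks in 10 Mb, and the interval lay below 1 for chromosomes 6 and 7. Chromosome 2 had the most, with 133 peaks in its proximal window (ratio to its own interior 6.03, 5.0 to 7.22) and 61 in its distal one. Without the proximal window of chromosome 2 the pooled H3K27me3 ratio was 1.96.

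For H3K4me3 the lowest, median and highest windows held 3.9, 7.6 and 14.1 peaks per Mb, and the interiors ranged between 4.34 and 7.59. Here 10 of 15 windows exceeded their own interior, 6 with the interval above 1 and 2 with the interval below it. The 6 were the distal ends of chromosomes 4 and 5, with 141 and 110 peaks, both ends of chromosome 2, with 131 proximal and 117 distal peaks, the proximal end of chromosome 4 with 99, and the distal end of chromosome 7 with 76. The proximal end of chromosome 3 had 39 H3K4me3 peaks, a ratio of 0.673 (0.478 to 0.922).

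Acetylation set chromosome 4 apart from the other ends. Its proximal and distal windows held 73 and 61 H3K9Ac peaks, 7.3 and 6.1 per Mb against 3.44 per Mb in its interior, and they alone had an interval above 1. Elsewhere the H3K9Ac windows ran between 1.3 and 3.7 per Mb, only the distal end of chromosome 5 exceeded its own interior, and 5 windows had an interval below 1. The distal end of chromosome 1 was the poorest against its own interior, with 14 H3K9Ac peaks (ratio 0.353, 0.193 to 0.593). Without chromosome 4 the pooled H3K9Ac ratio was 0.721. Without chromosome 1 it was 0.973, with 3.25 peaks per Mb at the ends and 3.34 in the interior.

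**Figure D1:**
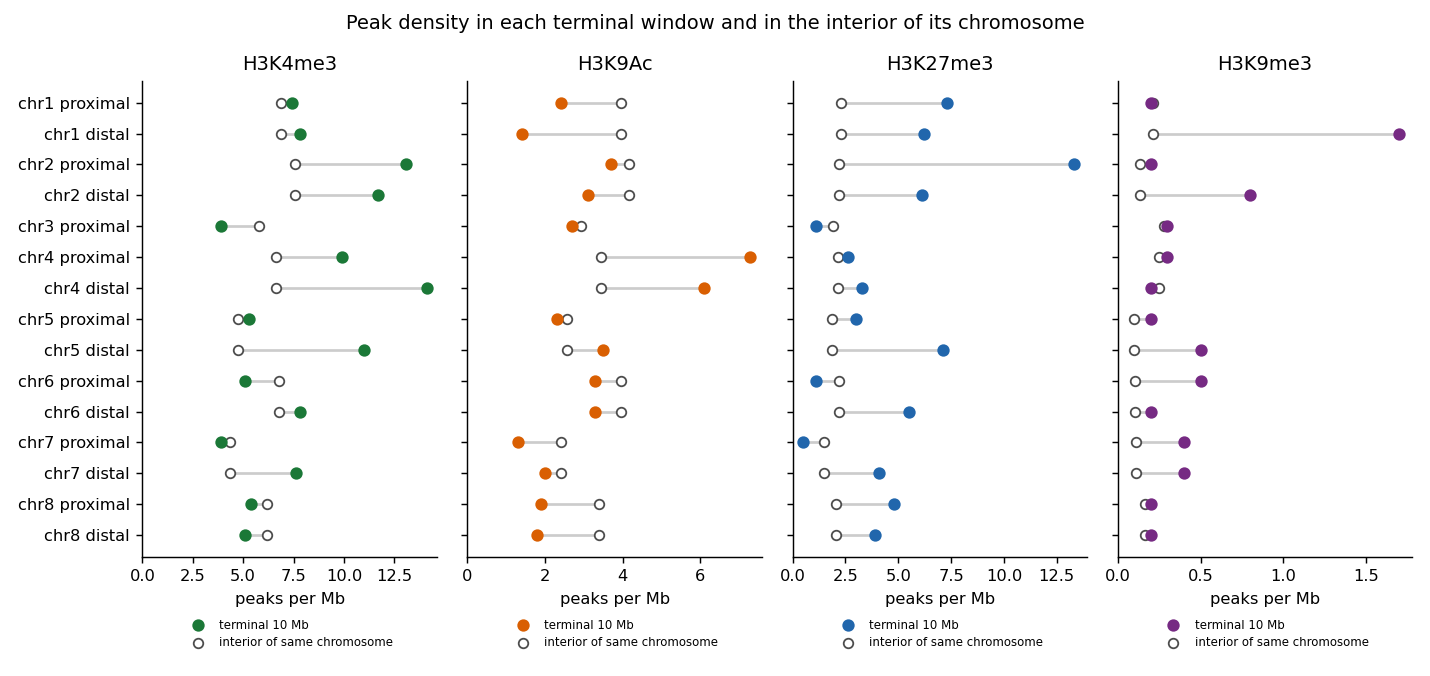
Peaks per Mb of each mark in the 15 terminal windows (filled points) and in the interior of the same chromosome (open points), 1 row per chromosome end, 1 list per mark and no replicates. H3K27me3 lies above the interior in 12 windows, with 13.3 per Mb at the proximal end of chromosome 2, and H3K9Ac in 3.

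H3K4me3 and H3K9Ac peaks at the ends were also weaker than those of the interior as a whole. Peak scores are the authors' own values and were compared only within a list. H3K4me3 peaks had a median score of 222 in the terminal windows and 354 in the interior, and a median width of 1824 bp and 2042 bp. The terminal median score was the higher one on 1 of 8 chromosomes, chromosome 3. Sorted into 5 equal score classes over both regions together, 11.7% of terminal H3K4me3 peaks and 20.5% of interior ones were in the top class, whose scores start at 962. A score of 3100, the value at which scores of this list pile up, was reached by 1 terminal H3K4me3 peak (0.0840%). In the interior 136 peaks (0.656%) reached it. H3K9Ac peaks had median scores of 72.6 and 85.1 and median widths of 920 bp and 1022 bp, terminal value first. On chromosome 4 the terminal H3K9Ac median score was the higher one (97.7 against 87.6). Between 10 and 20 Mb from the ends the H3K9Ac median was 74.7, within the counting interval of the terminal median (67.7 to 78.51). H3K27me3 peaks had median scores of 112 and 121, a difference within the counting interval of the terminal median (104.87 to 123.21), and median widths of 1392 bp and 1494 bp. H3K9me3 peaks had median scores of 58.3 and 57.7, both close to the lowest score in the list. The interior value lay within the counting interval of the terminal median (54.81 to 68.14).

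The strongest terminal H3K4me3 peak was on chromosome 5, from 4156089 to 4168013, with a score of 3112.6, and it overlapped H3K9Ac. Next came chromosome 4, from 4749903 to 4755867 (score 2962), and chromosome 4, from 433967622 to 433972940 (score 2543). Both of these carried H3K9Ac peaks that were themselves among the 3 strongest terminal ones. The strongest terminal H3K9Ac peak, on chromosome 4 from 433938747 to 433941206, scored 597 and lay inside H3K4me3. It ranked 14 of all H3K9Ac peaks compared. All 3 of the leading terminal H3K9Ac peaks were on chromosome 4, the chromosome with the densest acetylation at its ends.

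H3K4me3 peaks at the ends carried H3K9Ac less often. Of 1191 terminal H3K4me3 peaks, 356 shared at least 1 bp with an H3K9Ac peak, 29.9% (27.3% to 32.6%), against 8964 of 20737 in the interior, 43.2% (42.6% to 43.9%). The share was lower at the ends on 6 of 8 chromosomes. On chromosomes 3 and 4 it was higher, at 48.7% and 43.8% at the ends and 40.1% and 42.4% in the interior. For chromosome 3, with 39 terminal H3K4me3 peaks, the counting interval (32.4% to 65.2%) includes the interior share. On chromosome 4 only the proximal window was above the interior, and the distal one stood at 32.6%. Single windows ran between 15.4% at the distal end of chromosome 1 and 59.6% at the proximal end of chromosome 4, with a median of 26.4%. Weaker peaks carry H3K9Ac less often in both regions, and the terminal share was the lower one in all 5 classes of H3K4me3 score. In the top class it was 77.7% at the ends and 85.6% in the interior, and in the class below that 50.8% and 64.2%. In classes 1, 2 and 3, counted from the weakest, it was 5.80%, 16.0% and 32.4% at the ends. The interior shares there, 8.66%, 18.5% and 37.1%, lay within the counting intervals of the terminal ones. If terminal peaks had the interior share in each class of score, 35.3% would carry H3K9Ac, and with 5 classes of width 38.8%, against the 29.9% found.

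Dividing the H3K4me3 peaks by the other marks showed which kinds were more numerous at the ends. Peaks with neither H3K9Ac nor H3K27me3 made up 652 of 1191 terminal peaks, 54.7%, against 43.2% in the interior, and their density was 1.58 times that of the interior (1.46 to 1.71). Peaks with H3K27me3 alone, the bivalent pattern, numbered 183, 15.4% against 13.6%, with a density ratio of 1.41 (1.21 to 1.64). Those with H3K9Ac alone numbered 327, 27.5% against 40.3%, and were the only class below the interior in density (0.852, 0.760 to 0.951). The 29 terminal peaks with both marks gave a ratio of 1.03 whose interval (0.681 to 1.49) includes 1. The terminal peaks with neither mark had a median score of 150, close to 154 in the interior. Terminal peaks with H3K9Ac alone had a median score of 602, and interior ones 822. The 835 terminal H3K4me3 peaks without H3K9Ac lay a median of 86.1 kb from the nearest H3K9Ac peak, against 67.3 kb in the interior, and 11.4% and 17.2% of them lay within 10 kb of one.

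Most of the extra H3K27me3 at the ends lay away from H3K4me3. Of 699 terminal H3K27me3 peaks, 232 overlapped H3K4me3, 33.2% (29.7% to 36.8%), against 54.9% (53.7% to 56.0%) of 6745 in the interior. H3K27me3 peaks without H3K4me3 numbered 467, 3.11 per Mb at the ends and 0.934 per Mb in the interior, a ratio of 3.34 (3.02 to 3.68). Those with H3K4me3 numbered 1.55 and 1.13 per Mb, a ratio of 1.36 (1.19 to 1.56). Terminal H3K27me3 peaks without H3K4me3 had a median score of 104 and a median width of 1315 bp, and interior ones 88.8 and 1236 bp. The pooled median score of peaks without H3K4me3 was thus higher at the ends than in the interior. It was lower than that of terminal H3K27me3 peaks with H3K4me3 (median score 143). This contrast was not read within chromosomes. Over all H3K27me3 peaks the terminal median score was the higher one on 2 of 8, chromosomes 1 and 2. The terminal peaks without H3K4me3 lay a median of 24.0 kb from the nearest H3K4me3 peak, against 10.5 kb in the interior.

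The windows differed widely in this respect. At the proximal end of chromosome 2, 106 of 133 H3K27me3 peaks had no H3K4me3, and at the distal end of chromosome 5, 57 of 71. At the proximal end of chromosome 4 only 1 of 26 had none. The proximal ends of chromosomes 3, 6 and 7, which were poor in H3K27me3, had 4 of 11, 3 of 11 and 1 of 5 such peaks. Seen over whole chromosomes, the share of H3K27me3 peaks with H3K4me3 was lower at the ends on 6 of 8. It was higher on chromosomes 3 and 4 (63.6% and 72.9% at the ends, 50.6% and 53.8% in the interior). Chromosome 3 had only 11 such terminal peaks, and the distal window of chromosome 4, at 54.5%, was close to its interior. The acetylated share of H3K4me3 was also higher at the ends of these 2 chromosomes, with the limits given above.

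**Figure D2:**
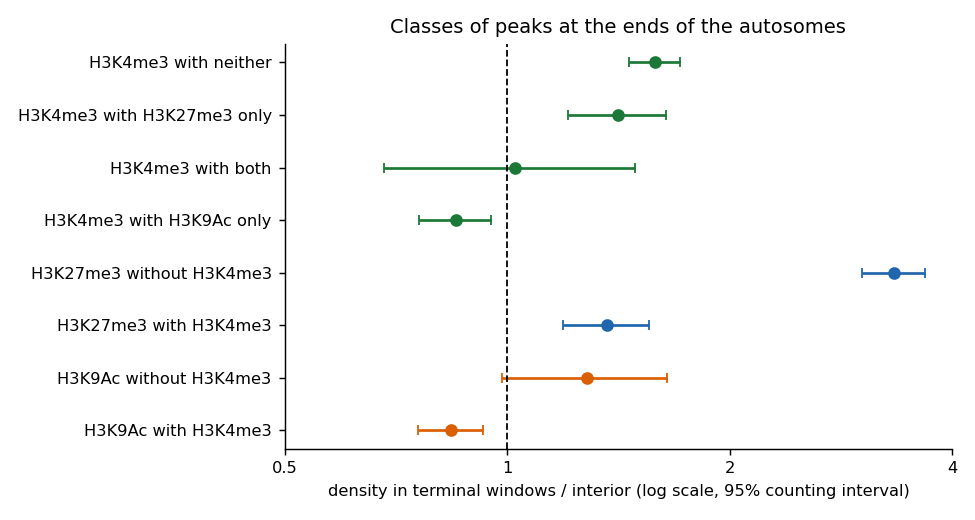
Density of each class of peak in the terminal windows divided by that in the interior, on a log scale, with the 95% counting interval as a bar, for H3K4me3 (green), H3K27me3 (blue) and H3K9Ac (orange) peaks. H3K27me3 peaks without H3K4me3 have the highest ratio (3.34), and H3K4me3 peaks with H3K9Ac alone (0.852) and H3K9Ac peaks in H3K4me3 (0.839) lie below 1.

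With gaps under 5 kb between H3K27me3 peaks closed to form domains, 279 of the 699 terminal peaks (39.9%) belonged to domains of 3 or more, against 33.8% in the interior. Chromosome 2 supplied 117 of the 279, and without it the shares were 32.1% at the ends and 33.9% in the interior. Domains longer than 20 kb numbered 14 at the ends and 182 in the interior, or 9.33 and 5.58 per 100 Mb, with a ratio of 1.67 whose interval (0.897 to 2.88) includes 1. Of the 14, 6 lay on chromosome 2 and 5 on chromosome 1. The longest, on chromosome 2 from 8111134 to 8179522, spanned 68.4 kb, held 17 peaks that filled 68.0% of it and touched no H3K4me3 or H3K9Ac peak. Next was a domain of 46.1 kb on chromosome 1 from 739226162 to 739272243, with 7 peaks and 1 H3K4me3 peak. A domain of 43.0 kb on chromosome 2 from 7127204 to 7170252 held 14 H3K27me3 peaks and 5 H3K4me3 peaks, and one of 37.0 kb from 536154315 to 536191321 on the same chromosome held 16 and 3. The next, 29.8 kb on chromosome 4 from 7196528 to 7226320, was of another kind, with 3 H3K27me3 peaks, one of them 24208 bp wide, that filled 96.6% of it, 5 H3K4me3 peaks and 1 H3K9Ac peak. The longest terminal domain ranked 9 among all domains compared, and the longest of the interior measured 311 kb.

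The strongest terminal H3K27me3 peak, on chromosome 1 from 4815076 to 4830973, was 15898 bp wide with a score of 3133.81, and it overlapped H3K4me3. A peak of the 46.1 kb domain on chromosome 1, from 739236465 to 739251093, followed with a score of 3100 and no other mark. The broad chromosome 4 peak from 7196528 to 7220735, 24208 bp wide, had the same score and carried both H3K4me3 and H3K9Ac.

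H3K9Ac peaks outside H3K4me3 formed a small group at the ends. Of 461 terminal H3K9Ac peaks, 395 lay in H3K4me3, 85.7% (82.1% to 88.8%), against 90.1% (89.6% to 90.7%) in the interior. The 66 without it had a density of 0.440 per Mb and 0.343 per Mb in the interior (ratio 1.28, 0.985 to 1.64, which includes 1). H3K9Ac lay in H3K27me3 for 22 terminal peaks, 4.77%, and for 4.68% in the interior, a difference smaller than the counting interval (3.01% to 7.14%).

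The 63 terminal H3K9me3 peaks were unevenly spread. Every window held at least 2, and 13 of 15 were above the interior of their own chromosome, though 13 of the windows had 5 peaks or fewer and only 4 had an interval above 1. The distal end of chromosome 1 held 17 (ratio 7.98, 4.53 to 13.2) and that of chromosome 2 held 8 (5.88, 2.44 to 12.2). On chromosome 1, 14 of the 17 lay in a stretch of 1.45 Mb from 744762182 to 746211314, and 13 of these 14 scored under 100. Without this window the pooled H3K9me3 ratio was 1.78. Of the 63 terminal peaks, 46 (73.0%) met no other mark, and 73.8% of interior peaks did not. The 3 highest scores were 381 on chromosome 7 from 341043 to 342764, in a place where all 4 marks met, 258 on chromosome 5 from 301236324 to 301237966, with H3K4me3 and H3K27me3, and 236 on chromosome 5 from 304402005 to 304402664, with H3K27me3. The distal 10 Mb of chromosome 3, which are not among the members, held 33 H3K9me3 peaks, 3.3 per Mb, and 15.8 H3K4me3 peaks per Mb.

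At the 10 Mb border itself H3K4me3, H3K9Ac and H3K27me3 had no step, as the profile by distance shows. Over the whole 10 Mb on either side their densities did differ. In the next 10 Mb of the same 15 ends H3K4me3 stood at 8.67 peaks per Mb, above the 7.94 of the terminal windows. The ratio of terminal to next was 0.915 (0.846 to 0.991), and 8 of 15 ends had more H3K4me3 peaks in the terminal window. H3K9Ac stood at 3.07 per Mb in the terminal windows and 3.95 in the next 10 Mb (ratio 0.777, 0.687 to 0.88). This contrast was larger than that with the whole interior, and 4 of 15 ends had more H3K9Ac peaks in the terminal window. H3K27me3 stood at 4.66 and 4.01 per Mb (ratio 1.16, 1.04 to 1.30), with more in the terminal window at 8 of 15 ends and equal numbers at 1. Past 20 Mb H3K27me3 declined, to 2.5 peaks per Mb between 20 and 50 Mb, 2.22 between 50 and 100 Mb, and 1.65 beyond 100 Mb. H3K9me3 fell inside the terminal windows, with 0.767 per Mb in the first 2 Mb, 0.533 between 2 and 5 Mb and 0.213 between 5 and 10 Mb. Between 10 and 20 Mb it had 0.160 per Mb, and between 20 and 50 Mb 0.242. Of its 63 terminal peaks, 23 lay in the first 2 Mb, of which 9 were at the distal end of chromosome 1. H3K4me3 had 10.3 peaks per Mb in the first Mb, 9.73 in the second and 6.6 in the third, and its highest value within 20 Mb of the end, 11.2, lay between 12 and 13 Mb.

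On both sides of the border H3K4me3, H3K9Ac and H3K27me3 had similar values, and H3K9me3 had too few peaks to compare. Between 9 and 10 Mb there were 9.6 H3K4me3, 3.87 H3K9Ac and 4.27 H3K27me3 peaks per Mb, and between 10 and 11 Mb 10.3, 3.6 and 4.13. H3K9me3 had 1 peak between 8 and 9 Mb, 6 between 9 and 10 Mb and 1 between 10 and 11 Mb. These counts are too small to place a step at the border. The H3K27me3 peak nearest to the border on the inside was on chromosome 2 from 9998597 to 9999773 (score 79.0), and the nearest outside was on chromosome 1 from 737641418 to 737642944 (score 134). For H3K4me3 these were chromosome 8 from 9985608 to 9988858 (score 551) and chromosome 1 from 737641719 to 737643004 (score 195).

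**Figure D3:**
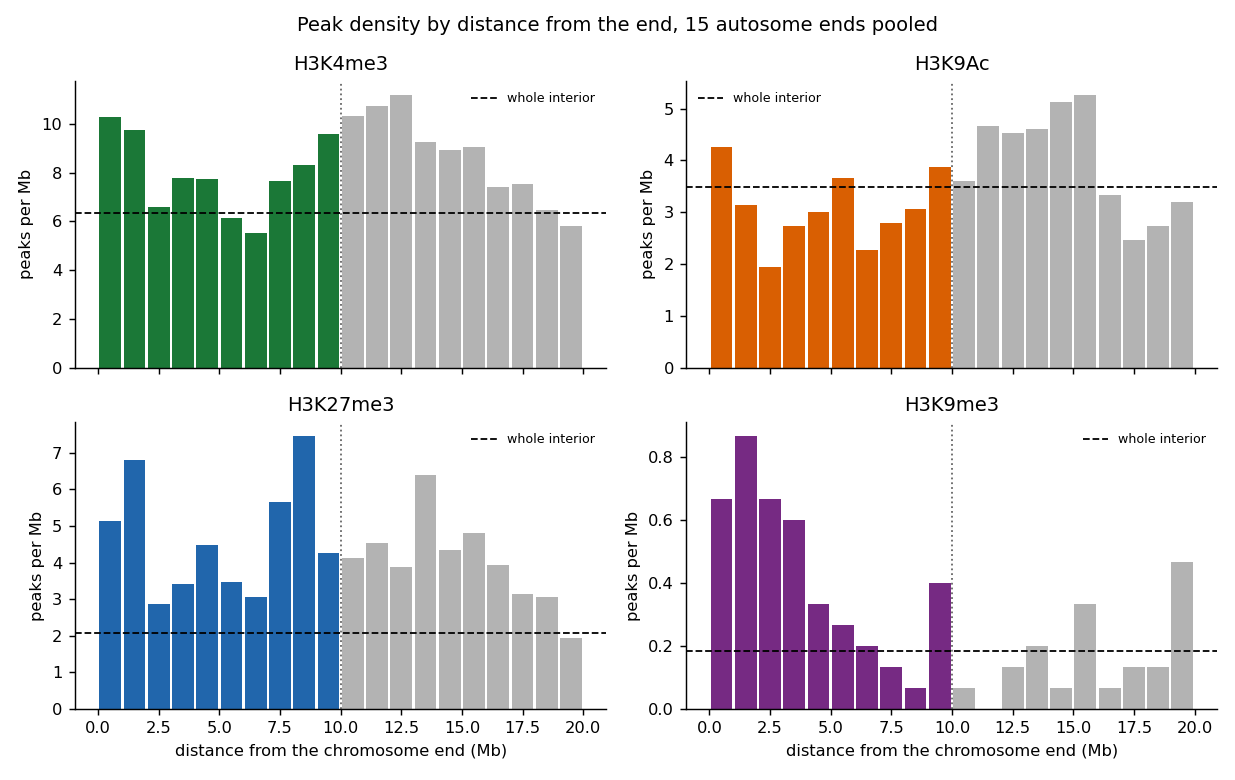
Peaks per Mb by distance from the chromosome end in steps of 1 Mb, pooled over the 15 ends, with the terminal 10 Mb in colour, the next 10 Mb in grey and the density of the whole interior as a dashed line. H3K4me3, H3K9Ac and H3K27me3 pass the dotted border without a step, while H3K9me3 is highest in the first 4 Mb.

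Overlap between the marks changed with distance over a far longer scale, read here without the distal side of chromosome 3. The share of H3K4me3 peaks with H3K9Ac was 27% in the first 2 Mb, 27.1% between 2 and 5 Mb, 33.1% between 5 and 10 Mb, 35.8% between 10 and 20 Mb, 37.3% between 20 and 50 Mb, 42.2% between 50 and 100 Mb and 47.7% beyond. The median H3K4me3 score went the same way, with 207, 223, 242, 265, 303, 336 and 411 in the same zones. The share of H3K27me3 peaks that overlapped H3K4me3 was 26.8%, 35.4%, 35.4%, 41.2%, 49.1%, 55.1% and 62.6%. The share of H3K4me3 peaks with H3K27me3 had no such order. It was 17.8% (15.7% to 20.1%) at the ends and 16.6% in the interior, a difference smaller than the counting interval. Larger distances hold a different mix of chromosomes, so the order was also read within each one. The H3K9Ac share was lowest in the terminal 10 Mb, higher from 10 to 50 Mb and highest beyond 50 Mb on 6 of 8 chromosomes. For H3K27me3 peaks with H3K4me3 the full order held on 4 of 8, and the share beyond 50 Mb exceeded that of the terminal 10 Mb on 7 of 8.

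**Figure D4:**
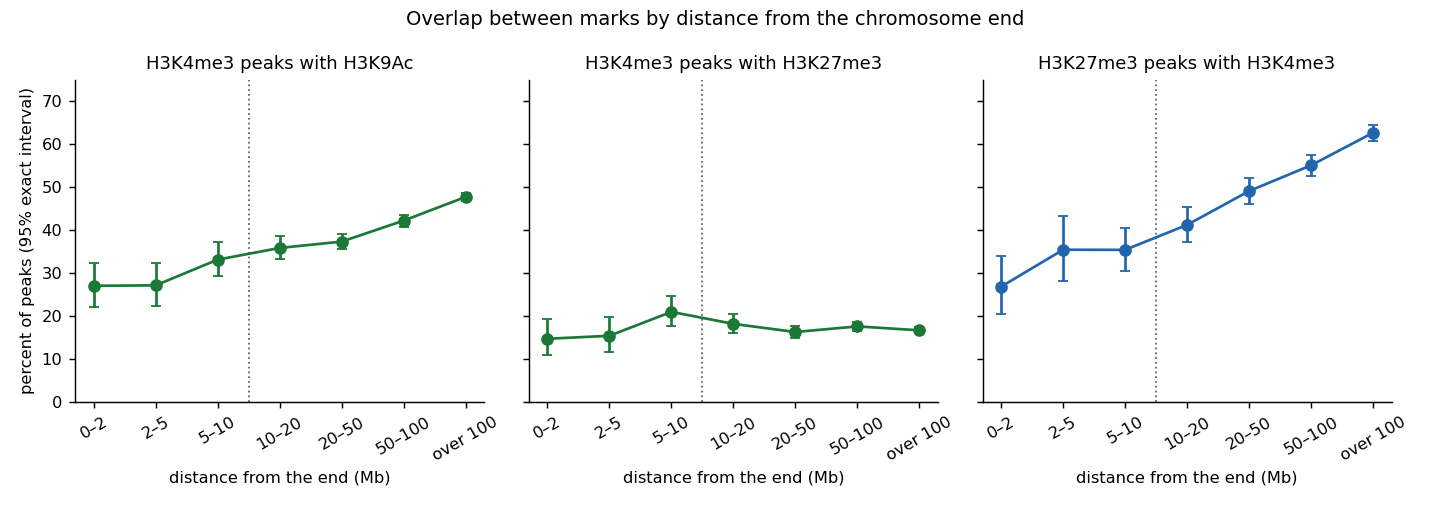
Percent of H3K4me3 peaks with H3K9Ac, of H3K4me3 peaks with H3K27me3 and of H3K27me3 peaks with H3K4me3, by distance from the chromosome end in Mb, with exact 95% intervals as bars and the 10 Mb border dotted. The left and right shares are 27% and 26.8% in the first 2 Mb and 47.7% and 62.6% beyond 100 Mb, while the middle one has no such order.

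Counted in bins of 1 Mb laid inward from each end, the excess of H3K27me3 was spread over many bins. A bin was called rich in a mark when it reached the lowest count that at most 10% of all bins reach. For H3K27me3 this count was 7, reached by 37 of 150 terminal bins (24.7%) and by 9.35% of all bins. For H3K4me3 it was 16, reached by 26 terminal bins (17.3%) and by 8.88% of all bins. For H3K9Ac it was 9, reached by 8 terminal bins (5.33%) and by 9.73% of all. For H3K9me3 it was 2, reached by 10 terminal bins (6.67%) and by 2.15% of all. The bins rich in H3K27me3 came from 12 of the 15 windows, all but the proximal ends of chromosomes 3, 6 and 7. Bins rich in both H3K4me3 and H3K27me3 numbered 12, which is 46.2% of the 26 and 32.4% of the 37. In the interior the shares were 44.6% and 43.8%. Of the 26 bins rich in H3K4me3, 5 (19.2%) were also rich in H3K9Ac, against 191 of 276 (69.2%) in the interior.

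The terminal bin with most H3K4me3 peaks was on chromosome 5 from 299712015 to 300712014, with 34, of which 10 carried H3K9Ac and 3 carried H3K27me3. Next were a bin on chromosome 2 from 9000001 to 10000000, with 29 peaks, 9 with H3K9Ac and none with H3K27me3, and one on chromosome 4 from 425088006 to 426088005, with 25, of which 6 and 4 carried these marks. The richest in H3K27me3 were neighbouring bins on chromosome 2, from 8000001 to 9000000 with 42 peaks and from 7000001 to 8000000 with 30, which H3K27me3 covered to 10.1% and 7.95%. At the other extreme 16 of 150 terminal bins (10.7%) had no H3K4me3 peak, against 14.3% of interior bins, and 14 terminal bins (9.33%) had no peak of any mark, against 11.7% of interior bins. The first peak of any list on chromosome 8 starts at 3017650, so its first 3 bins were empty. The proximal end of chromosome 3 had 4 empty bins. On chromosome 7 no H3K27me3 peak lay from 431935 to 9931636, a gap of 9500 kb that takes up nearly its whole proximal window. Such gaps were not particular to the ends, since the longest H3K27me3 gap of the interior measured 25739 kb.

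Proximal and distal windows differed in their H3K4me3. The 7 distal windows held 9.30 H3K4me3 peaks per Mb with a median score of 208, and 24.9% of them carried H3K9Ac. The 8 proximal windows held 6.75 per Mb with a median score of 268, and 35.9% carried H3K9Ac. The proximal window of chromosome 4 raised these values, with 59 of 99 H3K4me3 peaks acetylated and a median score of 587. In single windows the share ran between 15.4% and 32.6% distally and between 22.1% and 59.6% proximally. Distal windows end on a peak by definition, while proximal ones start at position 0, on chromosome 8 about 3018 kb before the first peak. H3K27me3 stood at 5.17 per Mb in distal and 4.21 in proximal windows, and 29.3% and 37.4% of its peaks overlapped H3K4me3. H3K9Ac density was close, at 3.03 and 3.11 per Mb. The 40 H3K9me3 peaks of the distal windows included the 17 of chromosome 1, and the proximal windows held 23. The ranges of the single windows overlapped, with 5.1 to 14.1 H3K4me3 peaks per Mb distally and 3.9 to 13.1 proximally, and the difference was not tested.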

How the data were processed

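Chromatin was fragmented with micrococcal nuclease and the chromatin of sisters was pooled before the antibodies were added, per the labels' protocols. The submitters' processing notes list CASAVA 1.7, Bowtie 1.1.2 and MACS 1.0.1 and no settings. The build, the control, the threshold for peaks and how libraries were merged are stated in no source used here. The deposited lists give each peak's position and a score, whose computation no header states, and which was used within a list only. Starts are printed counting from 1. Start and end columns hold positions as deposited.

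Chromosome lengths are the last peak end of any list. Peaks were assigned by midpoint, and a peak starting below position 0 was kept. Overlap needed 1 bp. Density ratios have exact conditional intervals and shares Clopper-Pearson intervals, at 95%. No test was run, since each mark has 1 list and peaks are not replicates. No genes or sequences were used. Members, lists and measures were chosen with earlier results of these data known. Regions named are the 3 highest-scoring terminal peaks per mark, the 5 longest H3K27me3 domains, the 3 bins richest in H3K4me3 and the peaks at the border. The other windows, bins and gaps were named after their values were seen, as was the H3K9me3 stretch on chromosome 1. Of the 3 bins poorest in H3K4me3 no choice could be made, because 16 hold none. The border is given for 2 marks. The procedures were tested on simulated data. Computation used Python 3.11.15, numpy 2.4.6, pandas 2.3.3, scipy 1.17.1 and matplotlib 3.10.9.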

Additional observations from a re-analysis of the deposited data

How the results depend on the processing

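With 20 Mb windows the density ratio was 1.34 for H3K4me3, 1.02 for H3K9Ac, which reversed its direction, and 1.56 for H3K9me3. With 5 Mb windows it was 3.32 for H3K9me3, and the share of H3K4me3 peaks with H3K27me3 was lower at the ends by 1.58 percentage points (-1.58). The top-scoring 50% of each list gave ratios of 0.943 for H3K4me3, reversed, and 0.714 for H3K9Ac, and a difference of -2.59 points in that share. Windows laid from the first peak gave 1.34 for H3K4me3. With the distal end of chromosome 3 included the ratios were 1.33 for H3K4me3 and 3.25 for H3K9me3. The median of the 8 chromosomes was 1.83 for H3K27me3, 3.42 for H3K9me3 and -1.68 points for H3K4me3 peaks with H3K27me3. Cover in place of density gave 1.12 for H3K4me3 and 1.77 for H3K27me3. Against the next 10 Mb of the same ends, a setting chosen after the data were seen, the ratios were 0.915 for H3K4me3, reversed, 0.777 for H3K9Ac and 1.16 for H3K27me3, with differences of -5.93 points for H3K4me3 peaks with H3K9Ac and -8.01 points for H3K27me3 peaks with H3K4me3. The cause of these changes was not tested. Leaving the last 30 Mb of chromosome 3 out of the interior, also added then, gave 2.5 for H3K9me3. Leaving out each chromosome, or, added after the data were seen, each window, gave ranges of 1.16 to 1.31 for the H3K4me3 ratio, 0.721 to 0.973 for H3K9Ac, 1.90 to 2.40 for H3K27me3 and 1.78 to 2.56 for H3K9me3. The differences in share ranged between -17.0 and -10.9 points for H3K4me3 peaks with H3K9Ac, -0.153 and 2.25 for those with H3K27me3, and -25.5 and -16.5 for H3K27me3 peaks with H3K4me3. No paired analysis was possible because both libraries of a mark share 1 list, for which reason leaving out a library was not possible either. Depth is unknown, so weak peaks missed in a list cannot be told apart from absent ones.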
